A study of Mus musculus with 8 samples.

Results

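Glutathione transferases are the enzymes that join the tripeptide glutathione to reactive or foreign molecules, and 10 of their genes are described here, chosen by name from the 20894 genes of a liver RNA-sequencing table. They cover the theta class (Gstt1, Gstt2, Gstt3), the alpha class (Gsta3), the mu class (Gstm1, Gstm2, Gstm3, Gstm6), the pi class (Gstp1) and the microsomal class (Mgst1). All 10 passed the filter on low counts. They were picked with the difference between the 2 groups of this study already known, Gstt3 for its lower level, so the differences of these 10 genes are given as a description and without a test. A list of 18 other glutathione transferase and related genes and lists of the surrounding pathways are read against the test over all genes. These lists were also chosen with earlier results of these data known. Their counts beside the share over all genes are therefore a description and no independent test.

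The livers came from wild-type mice given the vector AAV8-TBG-POLR2G or, as the control, AAV8-TBG-GFP, and were collected after the mice had fasted during the day. AAV8 is a viral vector that enters liver cells well, the TBG promoter is active mainly in hepatocytes, and POLR2G is a subunit of RNA polymerase II. Strand-specific libraries of poly-A RNA numbered 4 for POLR2G and 4 for GFP. The sources used here name neither sex nor age, nor the animal behind each library. The p-values therefore measure only the spread among libraries, which may be technical. Values are CPM, counts relative to TMM-scaled library sizes, as mean ± SD with n = 4 per group. A log2 fold change is the fitted value for POLR2G over GFP, and SE its standard error.

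Library totals ran from 14159056 to 22165491 estimated counts. Polr2g, the delivered gene, had 213 to 258 counts with GFP and 38649 to 54553 with POLR2G, as each label says. The 10 hepatocyte markers, Alb and Ttr among them, summed to 128011 to 148954 CPM with GFP and 120691 to 135477 CPM with POLR2G. Markers of cholangiocytes summed to 18.9 to 26.5 and 21.1 to 25.0 CPM, and those of Kupffer cells and macrophages to 243 to 367 and 274 to 543 CPM. Liver is bulk tissue, so fewer cells of a type and less RNA per cell cannot be told apart. One POLR2G library carries a column number that the labels do not list and is called the unnumbered POLR2G library. Some genes that most tissues express strongly have few counts here, such as Actb with 0 to 29 and Rpl3 with 0 to 3 in a library. Whether a gene value covers all of the gene's transcripts was not tested.

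Conjugation to glutathione makes electrophiles more soluble and less reactive, and the product is then exported from the cell and trimmed to a mercapturic acid. The cytosolic classes are soluble enzymes of paired subunits, while Mgst1 sits in the membranes of the endoplasmic reticulum and the outer mitochondrial membrane. In hepatocytes, where these enzymes are abundant, many of the genes respond to NRF2, a transcription factor that senses oxidants and binds the antioxidant response element, and to receptors of foreign compounds such as CAR, PXR and AHR.

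The stretches of DNA around the transcription starts show which of these genes carry the core letters of such an element. Each sequence below runs 5′ to 3′ on the gene's strand, from 250 bases before to 50 bases after a start, and comes from RefSeq on GRCm38.p6, whose table matched 9 of the 10 genes with 14 starts. Capitals mark TGACNNNGC, the core of the antioxidant response element, or GCGTG, the core of the AHR site, each searched on both strands. These 5 are shown because Gstt3 and Gstt1 are the theta genes with lower levels, Gsta3 and Mgst1 hold the first core, and Gstp1, with the highest level of the 10, holds the other. The places are chr10:75781373-75781672 (minus strand) for Gstt3, chr10:75797682-75797981 (minus) for Gstt1, chr1:21240335-21240634 (plus) for Gsta3, chr6:138140277-138140576 (plus) for Mgst1 and chr19:4037863-4038162 (minus) for Gstp1.
Gstt3: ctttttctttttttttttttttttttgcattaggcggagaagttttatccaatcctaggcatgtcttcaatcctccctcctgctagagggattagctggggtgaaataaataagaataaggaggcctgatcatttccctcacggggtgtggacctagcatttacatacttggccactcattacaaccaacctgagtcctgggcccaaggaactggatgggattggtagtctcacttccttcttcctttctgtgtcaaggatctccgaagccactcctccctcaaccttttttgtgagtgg
Gstt1: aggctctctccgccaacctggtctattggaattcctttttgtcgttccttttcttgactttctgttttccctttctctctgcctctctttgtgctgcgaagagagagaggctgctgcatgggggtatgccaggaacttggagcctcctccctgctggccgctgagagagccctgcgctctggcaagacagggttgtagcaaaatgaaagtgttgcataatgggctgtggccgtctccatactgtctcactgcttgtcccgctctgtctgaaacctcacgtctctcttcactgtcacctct
Gsta3: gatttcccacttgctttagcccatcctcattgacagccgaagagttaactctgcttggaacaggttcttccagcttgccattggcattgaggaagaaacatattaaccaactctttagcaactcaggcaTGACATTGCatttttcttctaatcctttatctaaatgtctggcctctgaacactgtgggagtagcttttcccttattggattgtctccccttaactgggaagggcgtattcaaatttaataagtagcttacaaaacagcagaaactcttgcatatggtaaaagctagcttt
Mgst1: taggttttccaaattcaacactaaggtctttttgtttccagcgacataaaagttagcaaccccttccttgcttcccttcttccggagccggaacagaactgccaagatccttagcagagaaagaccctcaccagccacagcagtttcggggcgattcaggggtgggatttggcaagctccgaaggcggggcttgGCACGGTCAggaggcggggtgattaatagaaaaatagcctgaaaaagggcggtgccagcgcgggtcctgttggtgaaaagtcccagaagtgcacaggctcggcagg
Gstp1: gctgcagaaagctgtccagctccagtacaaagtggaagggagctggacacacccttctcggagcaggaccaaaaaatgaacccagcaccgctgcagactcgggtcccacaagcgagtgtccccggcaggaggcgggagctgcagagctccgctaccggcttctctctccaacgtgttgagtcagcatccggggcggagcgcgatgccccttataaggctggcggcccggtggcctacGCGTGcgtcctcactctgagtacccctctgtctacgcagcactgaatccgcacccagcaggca

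The antioxidant core began 121 bases before the start of Gsta3 and 56 bases before the Mgst1 start shown, there on the opposite strand. It was in no other of the 14 windows, and 12.4% of all 32851 windows of this kind hold it. The AHR core began 13 bases before the start of Gstp1 and was also in both windows of Gstm1, against 32.4% of all windows. The windows of Gstm1 overlap, and the core in both is the same site. No window of these genes held both cores. A match is a run of letters and shows no binding. Only the letters given above were searched, so other forms of either core would be missed.

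Per length, Gstp1 was the most abundant of the 10 in the control livers. Divided by the length of its longest coding transcript, it measured 2347 ± 461 CPM per kb with GFP. Mgst1 followed with 1043 ± 129, Gsta3 with 306 ± 34.1 and Gstt1 with 193 ± 9.36 CPM per kb. The mu genes Gstm6 (72.2 ± 4.56), Gstm2 (50.2 ± 2.62) and Gstm3 (41.3 ± 2.67 CPM per kb) came next. Gstt2 (27.7 ± 1.13) and Gstt3 (25.0 ± 1.83 CPM per kb) overlapped in range, and Gstm1 was last with 10.5 ± 0.511 CPM per kb. Gstm1 is known as a strongly expressed mu gene of mouse liver. It has 3 annotated coding transcripts, and whether its value covers all of them was not tested. In the POLR2G libraries the order was the same, except that Gstt3, at 14.5 ± 1.96 CPM per kb, no longer overlapped Gstt2 at 27.6 ± 1.35. Gstm2 (40.6 ± 11.5), Gstm3 (37.6 ± 10.2) and Gstt2, apart with GFP, overlapped there.

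Gstt3 was the one member whose POLR2G libraries all lay below all GFP control libraries. It is a theta-class enzyme gene (ENSMUSG00000001665; GRCm38 chromosome 10, 75774115 to 75781414, minus strand). It measured 44.6, 43.5, 50.7 and 48.9 CPM in GFP control replicates 1 to 4, from 789, 750, 787 and 902 counts. POLR2G replicates 1, 3 and 4 and the unnumbered library had 24.5, 27.7, 24.5 and 32.3 CPM, from 508, 473, 430 and 539 counts. The groups did not overlap, and the highest POLR2G library was the unnumbered one. The means were 46.9 ± 3.44 and 27.2 ± 3.68 CPM, 1.72-fold lower with POLR2G (log2 fold change −0.79, SE 0.104). Leaving out the unnumbered library gave −0.88, and over all 17 alternative settings the value ran from −0.91 to −0.74.

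**Figure D1:**
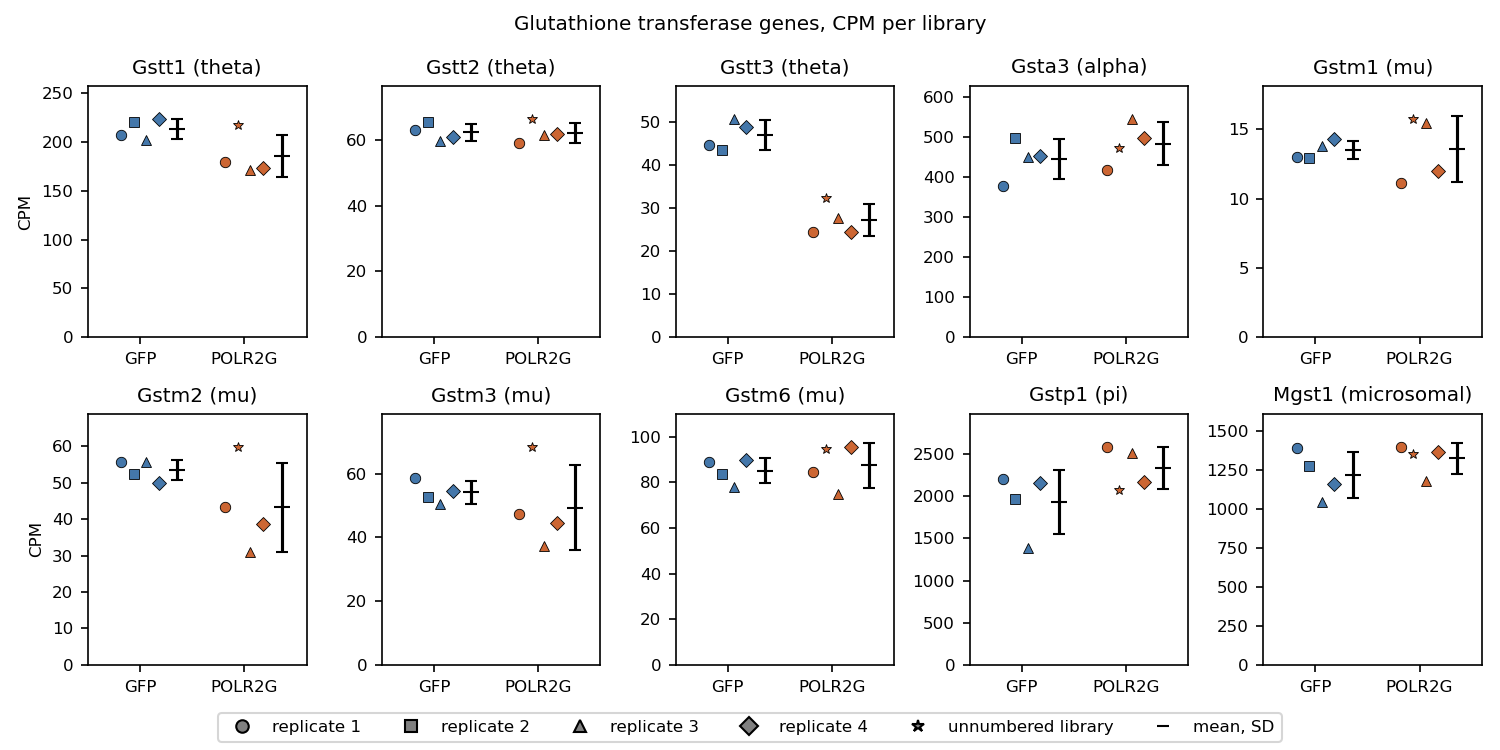
CPM of the 10 glutathione transferase genes in each of the 8 libraries (points, 1 per library, with the shape giving the replicate) and the mean with SD of each group (bar), on a linear axis from 0 for each gene. The Gstt3 points of the POLR2G group sit between 24.5 and 32.3 CPM, below the GFP control points at 43.5 to 50.7 CPM, while the points of the other 9 genes overlap between the groups.

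Gstt1, which acts on small halogenated molecules, lies next to Gstt3 (ENSMUSG00000001663; chromosome 10, 75783813 to 75798584, minus strand). It measured 207, 220, 202 and 224 CPM in GFP control replicates 1 to 4. POLR2G replicates 1, 3 and 4 had 179.8, 172 and 173 CPM, and the unnumbered library had 217. Only that unnumbered library reached the GFP control range. The means were 213 ± 10.3 and 185 ± 21.4 CPM, 13.1% lower with POLR2G (log2 fold change −0.20, SE 0.0872, and −0.29 without the unnumbered library). Gstt2 (ENSMUSG00000033318; chromosome 10, 75831114 to 75837424, minus strand) measured 59.8 to 65.6 CPM with GFP and 59.3 to 66.5 CPM with POLR2G. Its means of 62.4 ± 2.54 and 62.2 ± 3.04 CPM differed by less than the spread in either group.

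Set against each other within a library, the theta genes stood in other proportions with POLR2G than with GFP. Gstt3 made up 13.2% to 16.2% of the summed CPM of the 3 theta genes with GFP and 9.30% to 10.6% with POLR2G, with no overlap. Gstt2 held 18.3% to 20.1% with GFP and 21.1% to 23.9% with POLR2G. Because the shares sum to the whole, this follows from the lower Gstt3 and Gstt1 values at a Gstt2 level that hardly differed (62.4 and 62.2 CPM), and it is no separate observation. Gstt1 held 64.6% to 67.1% and 65.8% to 68.7%, with overlap. These shares do not depend on how the libraries are scaled. The summed theta CPM was 323 ± 10.4 with GFP and 275 ± 27.3 with POLR2G.

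**Figure D2:**
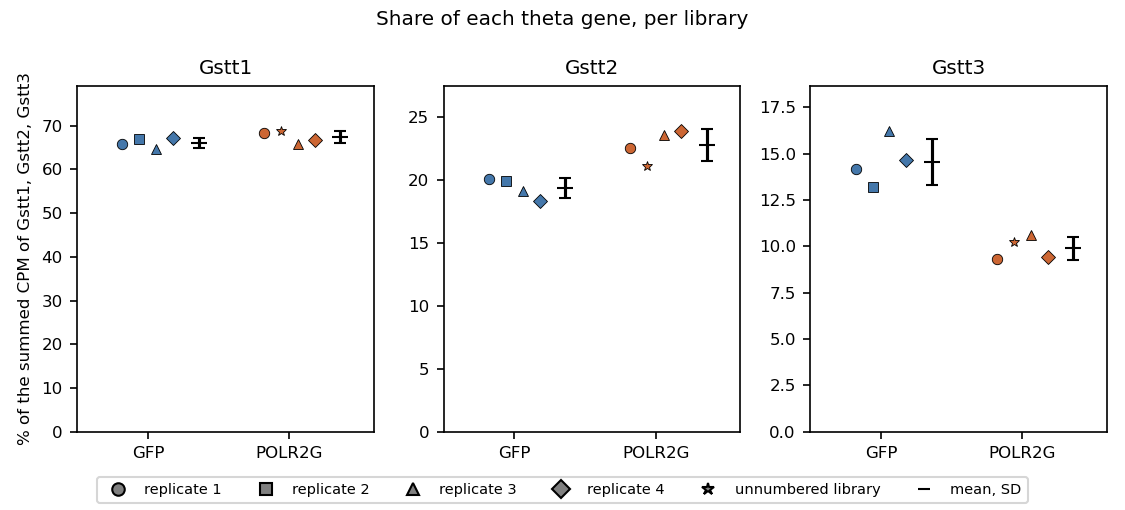
Share in percent of each theta gene in the summed CPM of Gstt1, Gstt2 and Gstt3, per library (points) with the mean and SD of each group (bars). The Gstt3 means are 14.6% with GFP and 9.90% with POLR2G, those of Gstt2 are 19.4% and 22.7%, while the Gstt1 points overlap.

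The theta genes sit in a row on chromosome 10, next to genes of other families. Within 100 kb on either side of the 3 genes GENCODE M21 lists 12 coding genes, of which 6 were tested and are not members. Their edgeR adjusted p-values over all genes were 0.729 to 0.968, and their log2 fold changes ran from −0.074 to 0.63. The 0.63 was that of Derl3, with few counts (1.41 ± 0.943 CPM with GFP and 2.17 ± 1.06 with POLR2G, SE 0.562). The next highest was Cabin1 at 0.28 (SE 0.178). The neighbour on one side, Ddt, which encodes D-dopachrome tautomerase, measured 255 ± 10.7 and 277 ± 18.1 CPM (log2 fold change 0.12, SE 0.0687, edgeR adjusted p = 0.729). Beyond Gstt2 lies Mif, a cytokine gene of the same family as Ddt, with a log2 fold change of −0.074 (SE 0.114, edgeR adjusted p = 0.921). Gstt4, between Gstt1 and Gstt2, had at most 1 count in a library. Gm20441, a coding model that runs from Ddt into Gstt3 (75771451 to 75780954), had 0 counts in every library although 21.0% of the 31-base words of Gstt3 transcripts are also in its own. Gstt3 and Gstt1 shared few such words (0.468% of those of Gstt1).

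**Figure D3:**
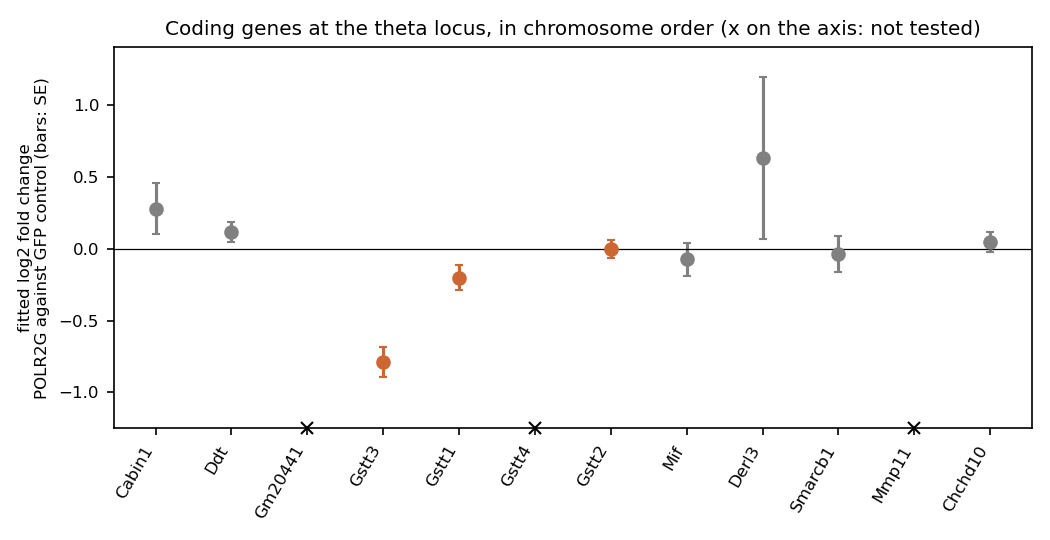
Fitted log2 fold change with SE of the coding genes within 100 kb of the theta genes, in chromosome order at even spacing (orange, the 3 theta genes; grey, neighbours; crosses on the axis, genes not tested). Gstt3 is at −0.79 and Gstt1 at −0.20, while Gstt2 lies at −0.0040. The 6 tested neighbours run from −0.074 to 0.63, the highest being Derl3, with few counts (SE 0.562).

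In the mu class, Gstm2 and Gstm3 ranked the 4 POLR2G libraries in the same order and spread far among them. The order is not particular to them, since the theta gene Gstt1 ranked these libraries alike, with a coefficient of variation of 11.5%. Mu enzymes conjugate epoxides and quinones among other substrates. Their genes lie side by side on chromosome 3, Gstm6 at 107938847 to 107943749, Gstm3 at 107963696 to 107969283, Gstm2 at 107981702 to 107986453 and Gstm1 at 108012255 to 108017973, all on the minus strand. Gstm2 (ENSMUSG00000040562) measured 55.7, 52.4, 55.6 and 49.9 CPM in GFP control replicates 1 to 4. POLR2G replicates 1, 3 and 4 had 43.5, 30.97 and 38.6 CPM, and the unnumbered library had 59.95. So 3 POLR2G libraries lay below every GFP control library and the unnumbered one lay above. The means were 53.4 ± 2.79 and 43.2 ± 12.3 CPM (log2 fold change −0.30, SE 0.171). Without the unnumbered library the log2 fold change was −0.50, and without POLR2G replicate 3 it was −0.18.

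Gstm3 (ENSMUSG00000004038) had 58.7, 52.6, 50.5 and 54.6 CPM in GFP control replicates 1 to 4. POLR2G replicates 1, 3 and 4 had 47.3, 37.2 and 44.4 CPM and the unnumbered library 68.5, the order seen for Gstm2. The means were 54.1 ± 3.497 and 49.3 ± 13.4 CPM (log2 fold change −0.13, SE 0.164). That value was −0.33 without the unnumbered library, −0.020 without POLR2G replicate 3 and −0.086 without POLR2G replicate 4. Between POLR2G libraries the coefficient of variation was 28.4% for Gstm2 and 27.2% for Gstm3, against 5.22% and 6.47% between GFP control libraries. Estimated counts can be split between either gene and others that share its words. Of the 31-base words of Gstm3 37.7%, and of those of Gstm2 17.4%, are also in other genes, pseudogenes included. Only 0.859% of the Gstm3 words are in Gstm2. Their summed CPM was 108 ± 4.66 with GFP and 92.6 ± 25.7 with POLR2G.

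Gstm6 (ENSMUSG00000068762), a mu gene with few known substrates, measured 78.1 to 89.6 CPM with GFP and 75.0 to 95.8 CPM with POLR2G. Its means were 85.1 ± 5.38 and 87.5 ± 9.76 CPM (log2 fold change 0.038, SE 0.0914). Gstm1 (ENSMUSG00000058135) was at 12.9 to 14.3 CPM with GFP and 11.1 to 15.8 CPM with POLR2G, from 211 to 264 counts. The log2 fold change was 0.0062 (SE 0.135), and 30.4% of its words are also in other genes. The sign of the small differences of Gstm1, Gstm6 and Gstt2 depended on the setting, and their groups overlapped. For the 4 mu genes together the CPM was 206 ± 8.15 with GFP and 194 ± 33.3 with POLR2G. At this locus GENCODE M21 lists 11 coding genes within 100 kb, and the 4 that were tested and are not described here had edgeR adjusted p-values of 0.842 to 0.993.

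The alpha, pi and microsomal genes had higher means with POLR2G, with overlapping groups. Gsta3 (ENSMUSG00000025934; chromosome 1, 21240589 to 21265661, plus strand) is known in the mouse for detoxifying the epoxide of aflatoxin. It measured 378, 498, 451 and 453 CPM in GFP control replicates 1 to 4. In POLR2G replicates 1, 3 and 4 and the unnumbered library it measured 419, 546, 497 and 474 CPM. The lowest value of each group was in replicate 1, and the means were 445 ± 49.7 and 484 ± 52.7 CPM (log2 fold change 0.12, SE 0.106). That value was 0.050 without GFP control replicate 1, 0.057 without POLR2G replicate 3 and 0.18 without POLR2G replicate 1.

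Mgst1 (ENSMUSG00000008540; chromosome 6, 138140316 to 138156755, plus strand), which also reduces lipid peroxides, measured 1391, 1276, 1043 and 1159 CPM in GFP control replicates 1 to 4. POLR2G replicates 1, 3 and 4 and the unnumbered library had 1400, 1177, 1366 and 1353 CPM, within or just above the GFP control range. The means were 1217 ± 149.99 and 1324 ± 99.9 CPM (log2 fold change 0.12, SE 0.100). That value was 0.053 without GFP control replicate 3 and 0.19 without GFP control replicate 1. None of its 31-base words is in another gene.

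Gstp1 (ENSMUSG00000060803; chromosome 19, 4035407 to 4037985, minus strand), the pi enzyme, is known for a higher level in male than in female mouse liver. It measured 2201, 1967, 1380 and 2160 CPM in GFP control replicates 1 to 4. In POLR2G replicates 1, 3 and 4 and the unnumbered library it measured 2588, 2506, 2167 and 2070 CPM. GFP control replicate 3 was the lowest of all, and GFP control replicates 1 and 4 lay within the POLR2G range. The means were 1927 ± 379 and 2333 ± 253 CPM (log2 fold change 0.28, SE 0.147), and without GFP control replicate 3 the log2 fold change was 0.14. A list of 20 genes with male-biased liver expression had its lowest score in the same library, at −0.79 on the log2 scale against the GFP control mean. Scores were 0.033 to 0.60 in the other 3 GFP libraries and 0.43 to 0.72 with POLR2G. A list of 8 tested female-biased genes scored highest in it, at 0.79, where the other 3 GFP libraries had −0.33 to −0.16 and POLR2G −1.23 to −0.59. The part of both in the result was not tested. Of the 31-base words of Gstp1, 57.8% are also in Gstp2, a near-identical gene with at most 17 counts in a library.

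Across the 10 genes, 5 had a lower and 5 a higher mean with POLR2G, with a median log2 fold change of 0.0011 against −0.0031 over all 10390 genes tested. In 1 gene, Gstt3, the groups did not overlap, where 5.51% of all genes tested did not overlap, 2.68% with every POLR2G library below and 2.83% above. By edgeR's quasi-likelihood test with Benjamini-Hochberg adjustment 0 of the 10 passed 0.05 over all genes, where 0.0385% of all genes did. At an unadjusted p under 0.05 there were 2, Gstt3 and Gstt1, both lower, where 8.3% of all genes reached that level, 4.1% lower and 4.2% higher. DESeq2, which called 1.33% of the genes it tested, called 1 of the 10, Gstt3, and limma-voom, which called 0.0289%, called 0. The genes were chosen with this contrast known, so nothing is read from these counts. The unnumbered POLR2G library was the highest of its group for 6 of the 10 genes, and GFP control replicate 3 was the lowest of its group for 6. All 10 together summed to 4118 ± 499 CPM with GFP and 4609 ± 186 CPM with POLR2G, and without Gstp1 to 2191 ± 142 and 2276 ± 101 CPM.

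**Figure D4:**
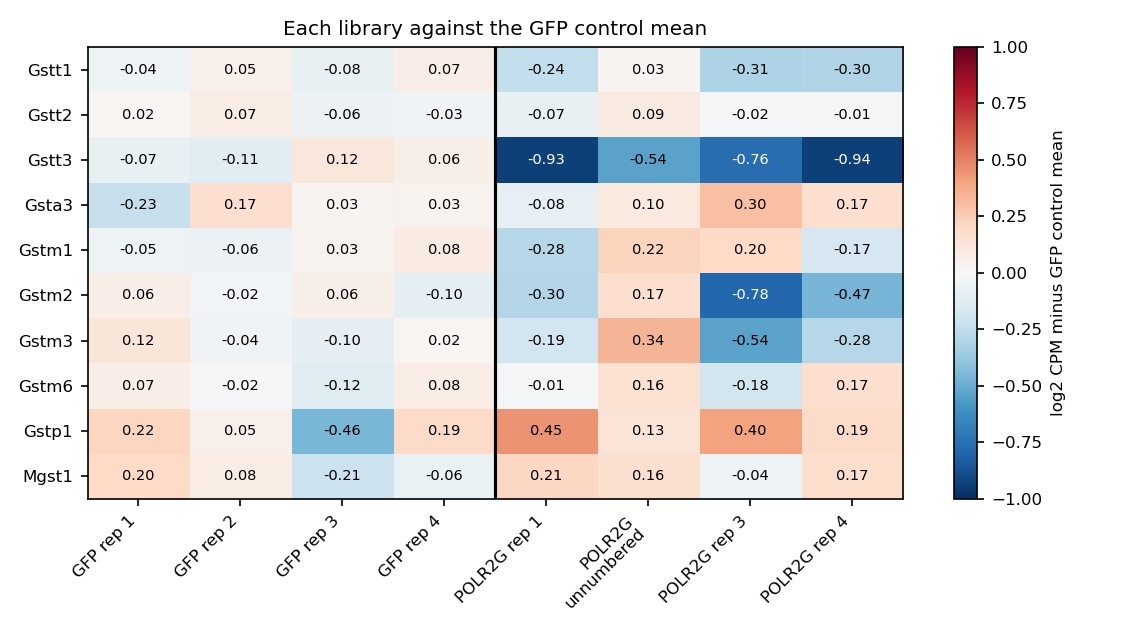
Log2 CPM of each gene in each library minus the mean of the 4 GFP control libraries (colour and number; blue is lower, red is higher). Gstt3 is blue in all 4 POLR2G libraries, Gstm2 and Gstm3 are blue in 3 of them and red in the unnumbered one, and Gstp1 is bluest in GFP control replicate 3.

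The 5 genes nearest to Gstt3 in their pattern over the 8 libraries held no transferase. Likeness was the root-mean-square difference of log2 CPM, each gene centred on its own mean, over 8512 named genes. It includes the group difference for which Gstt3 was chosen and is a description. Among the nearest was Pawr, a gene linked to cell death, at 0.141. The fatty acid transporter gene Cd36 at 0.158, the ubiquitin ligase gene Rnf145 at 0.159 and the glycerol kinase gene Gk at 0.181 were also among them. The median of all genes compared was 0.465. Among the transferases Gstt1 ranked 227 with 0.310 and Gstm2 ranked 232 with 0.311, and Gstp1 was at 0.619, farther than the median.

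The other glutathione transferases did not pass the test. Of 18 genes listed, 12 were tested, 7 with a higher and 5 with a lower mean and a median log2 fold change of 0.065. By edgeR 0 of the 12 passed over all genes. At an unadjusted p under 0.05, 0 were higher and 1 was lower (over all genes 4.2% higher and 4.1% lower). DESeq2 and limma-voom, which called 1.33% and 0.0289% of the genes they tested, called 0. Mgst3, a membrane enzyme of the leukotriene C4 synthase family, had the smallest p, with 10.1 ± 2.22 CPM with GFP and 5.97 ± 1.55 CPM with POLR2G (log2 fold change −0.75, SE 0.234, edgeR adjusted p = 0.413). Gsta4, an alpha enzyme that conjugates the lipid peroxidation product 4-hydroxynonenal, was next with 41.6 ± 9.35 and 52.0 ± 8.03 CPM (log2 fold change 0.32, SE 0.163, edgeR adjusted p = 0.654). Gstm5, Gstp2, Gstt4, Gsto2, Mgst2 and Ptges were not tested, with at most 17 counts in a library.

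**Figure D5:**
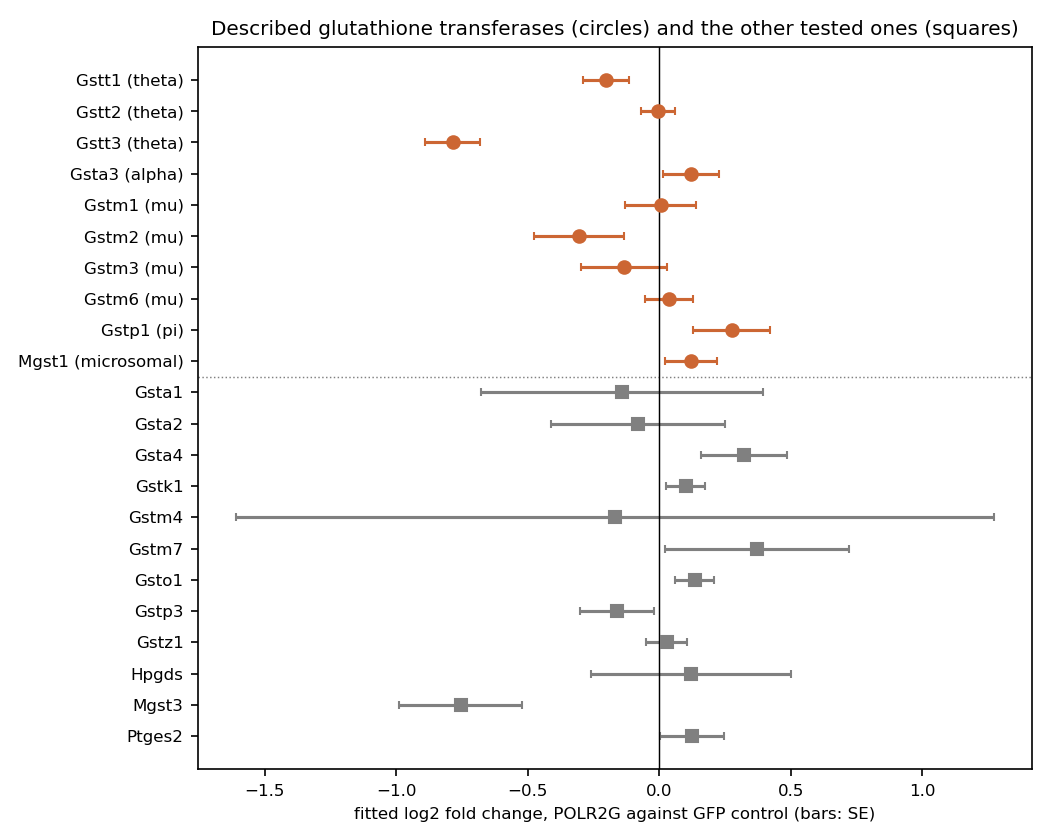
Fitted log2 fold change of POLR2G against GFP control with its SE for the 10 described genes (orange circles) and the 12 other tested genes of the list (grey squares). Gstt3 at −0.79 and Mgst3 at −0.75 lie farthest to the left, and every other point lies within 0.4 of 0.

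Genes that make, recycle or use glutathione without conjugating it were about evenly split between higher and lower means. Of 21 tested, 10 had a higher and 11 a lower mean (median log2 fold change −0.0051). By edgeR 0 passed. At an unadjusted p under 0.05, 3 were higher and 0 lower, where 4.2% of all genes were higher and 4.1% lower. DESeq2 and limma-voom, which called 1.33% and 0.0289% of the genes they tested, called 0. Gpx1, the main cytosolic glutathione peroxidase, measured 1406 ± 179.6 and 1764 ± 58.4 CPM (log2 fold change 0.33, SE 0.0936, edgeR adjusted p = 0.360). Hagh, which releases glutathione from its lactoyl thioester, measured 221 ± 10.4 and 255 ± 14.03 CPM (log2 fold change 0.21, SE 0.0666, edgeR adjusted p = 0.437).

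Downstream of conjugation, export and mercapturate genes had 14 of 17 tested members with a higher mean (median log2 fold change 0.20, against −0.0031 over all genes), and edgeR called 0. At an unadjusted p under 0.05 there were 3 higher and 0 lower, where 4.2% of all genes were higher and 4.1% lower. DESeq2, which called 1.33% of all genes, called 3 of the 15 to which it gave an adjusted p, Acy1, Anpep and Nat8f1, all higher, and limma-voom called 0. Without GFP control replicate 3 the median was 0.11 and the counts at an unadjusted p were the same. Over all genes in that fit 4.33% were higher and 4.61% lower. Acy1, an aminoacylase that removes the acetyl group from mercapturic acids, measured 5.94 ± 0.8293 CPM with GFP and 10.7 ± 1.31 CPM with POLR2G (log2 fold change 0.85, SE 0.155, edgeR adjusted p = 0.152). Nat8f1, an N-acetyltransferase gene, measured 232 ± 17.1 and 291 ± 18.5 CPM (log2 fold change 0.33, SE 0.0765, edgeR adjusted p = 0.252).

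Lists of 2 pathways known to drive transferase genes held no gene past the test, among those that the filter left. Of the 28 NRF2 genes listed 5 were not tested, Slc7a11, Ugdh and G6pdx among them with 0 counts in every library. Of the 20 CAR, PXR and AHR genes 4 were not tested, Cyp2b10, Cyp2c29, Ahrr and Cyp1b1, with at most 15 counts in a library. In the NRF2 list 16 of 23 tested genes had a higher mean (median log2 fold change 0.036), and by edgeR 0 passed. At an unadjusted p under 0.05 this list had 2 genes higher and 0 lower (over all genes 4.2% higher and 4.1% lower). Its leading genes were the repressor gene Bach1, at 61.4 ± 7.05 and 84.97 ± 15.2 CPM (log2 fold change 0.47, SE 0.134, edgeR adjusted p = 0.360), and the partner gene Mafk (log2 fold change 0.31, SE 0.133, edgeR adjusted p = 0.585). In the CAR, PXR and AHR list 10 of 16 tested genes had a higher mean (median 0.036), and by edgeR 0 passed. At an unadjusted p under 0.05 this list had 1 gene higher and 0 lower (over all genes 4.2% higher and 4.1% lower). Cyp1a2, an AHR target, had a log2 fold change of 0.32 (SE 0.114, edgeR adjusted p = 0.482), and the glucuronyl transferase gene Ugt1a1 of 0.23 (SE 0.101, edgeR adjusted p = 0.601). DESeq2 and limma-voom, which called 1.33% and 0.0289% of the genes they tested, called 0 genes of either list.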

How the data were processed

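The authors deposited 1 table of estimated counts as whole numbers, 20894 genes by 8 libraries, not normalized. Salmon 1.2.1 and the builds GRCm38 and mm10 are named, per the submitters' processing notes. The annotation release, the rounding and the summing of transcripts: not given in the sources used here. Symbols, gene models and 31-base words came from GENCODE M21 (GRCm38), which named 20817 genes.

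Columns were assigned by library name. No library was a duplicate: chi-square over degrees of freedom was 13.7 to 138 in the 12 within-group pairs. The test was edgeR 4.0.16 (R 4.3.3; quasi-likelihood F-test, two-sided, TMM, filterByExpr with a minimum count of 10 and total of 15, group as the only term) over 10390 genes with Benjamini-Hochberg adjustment at 0.05. DESeq2 1.42.0 and limma-voom (limma 3.58.1) were alternatives. The SE is the log2 fold change over the root of F. The steps were tested on simulated data. Members and lists were chosen with earlier results of these data known. Named are the 10 members, Polr2g, in each list up to 4 called genes or else the 2 with the smallest p, and the 5 genes nearest to Gstt3, of which 1 is not reported here; others were chosen after their values were seen.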

Additional observations from a re-analysis of the deposited data

Results flagged for a closer look

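The summed CPM of the theta genes Gstt1, Gstt2 and Gstt3 in the unnumbered POLR2G library was 316, against 264 in the next POLR2G library. The gap was 0.921 of the range of the 4 POLR2G libraries, above Dixon's 95% critical value for 4 samples. It was 1 of 32 groups of 4 looked at, and chance flags about 1 in 20 independent groups. These groups were not independent. The alpha, pi and microsomal sums repeat Gsta3, Gstp1 and Mgst1, and the other sums contain genes also looked at singly. In that library the theta sum lay within the GFP control range of 313 to 334 CPM.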

How the results depend on the processing

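Each described gene was refitted under 17 alternatives. The sign was kept in all 17 for Gstt3 (−0.91 to −0.74), Gstt1 (−0.29 to −0.17), Gstm2 (−0.52 to −0.18), Gstm3 (−0.35 to −0.020), Gsta3 (0.040 to 0.19), Gstp1 (0.14 to 0.36) and Mgst1 (0.051 to 0.19), and in 13 for Gstt2 (−0.077 with library totals only, which moved the median of all genes to −0.079), 11 for Gstm6 and 9 for Gstm1. Called genes overall numbered 4 by edgeR, 130 by DESeq2 (69 higher, 61 lower), 1 with library totals only, 2 with Polr2g out of the library sizes and so out of the count, and 1 to 6 with 1 library left out (1 without POLR2G replicate 1 or replicate 4, 2 without GFP control replicate 2 or the unnumbered library). Of the described genes 0 were called, and 1, Gstt3, by DESeq2, with no low-count filter, or without the unnumbered library (0 to 1 over the fits with 1 library left out). Gstt3 was picked for its lower level in this contrast, so nothing is read from these calls. DESeq2, which called 1.33% of the genes it tested, also called 3 of 15 export and mercapturate genes. It called 3 of 20 male-biased, 2 of 7 female-biased, 1 of 15 pericentral and 2 of 17 periportal genes. EdgeR, which called 0.0385% of all genes, called 0 of each list. The cause was not tested. With the replicate number as a block over the 6 libraries that share one, 2 genes were called, against 1 in the same 6 without it, a fit added after seeing the data. Same-numbered libraries correlated at 0.068, −0.017 and 0.023 across genes, not every one best with its own number, so the numbers were not taken as pairs. With library totals only, Gsta3 was at 0.040 and Mgst1 at 0.051. Counting error was largest for Gstm1, with 211 to 264 counts in a library, while the SE was largest for Gstm2 (0.171). Words shared with other genes limit Gstp1 (57.8%), Gstm3 (37.7%), Gstm1 (30.4%), Gstt3 (22.6%), Gstm2 (17.4%) and Gstm6 (15%).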

Other observations

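Many transferase genes are known to be richer in hepatocytes around the central vein, and lists for both zones were measured. Of 15 tested pericentral genes 8 had a higher and 7 a lower mean (median log2 fold change 0.0023), and of 17 periportal genes 7 and 10 (median −0.033). By edgeR 0 of either list passed, with 2 higher and 1 lower pericentral and 3 higher and 0 lower periportal genes at an unadjusted p under 0.05 (over all genes 4.2% higher and 4.1% lower). Limma-voom called 0, and DESeq2, at 1.33% of all genes, called Rhbg, Hal and Otc. Rhbg, an ammonium transporter gene, measured 9.99 ± 2.00 and 18.4 ± 2.43 CPM (log2 fold change 0.88, SE 0.162, edgeR adjusted p = 0.152), and the amino acid transporter gene Slc1a4 3.31 ± 0.904 and 1.69 ± 0.288 CPM (−0.97, SE 0.276, edgeR adjusted p = 0.360). Otc, a urea cycle gene, measured 14.2 ± 0.899 and 21.2 ± 2.64 CPM (0.58, SE 0.110, edgeR adjusted p = 0.164), and Hal, the histidine ammonia-lyase gene, 256 ± 16.9 and 319 ± 15.5 CPM (0.32, SE 0.0708, edgeR adjusted p = 0.234).

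In the male-biased list 17 of 20 tested genes had a higher mean (median log2 fold change 0.48), and in the female-biased list 6 of 8 tested genes had a lower one (median −0.88). Mup1, Mup3, Mup7, Mup11, Mup12, Mup20 and Mup21 of the male-biased list are of the same family. Words shared among them were not measured, so they may not count as separate genes. Of the 22 female-biased genes listed 14 were not tested for low counts, Cyp2b9, Cyp3a41a, Sult2a1, A1bg and Hao2 among them with at most 4 in a library, so these counts cover what the filter left. Both lists were chosen with earlier results of these data known, so their counts are a description. EdgeR called 0 of either list, and limma-voom called 0. At an unadjusted p under 0.05, 8 male-biased genes were higher and 0 lower. Of the female-biased genes 1 was higher and 5 were lower at that p (over all genes 4.2% higher and 4.1% lower). GFP control replicate 3 stood apart in both scores, at −0.79 for the male-biased and 0.79 for the female-biased list, and the male-biased score of GFP control replicate 1 (0.60) lay within the POLR2G range of 0.43 to 0.72. Without replicate 3 the medians were 0.26 and −0.71. At that p 8 male-biased genes were then higher and 2 lower, and 1 female-biased gene was higher and 5 lower. Over all genes in that fit 4.33% were higher and 4.61% lower. Without GFP control replicate 1 the male-biased count was 16 higher, where 4.12% of all genes in that fit were. Without GFP control replicate 2 that count was 5, where 4.03% of all genes were higher. DESeq2, at 1.33% of all genes, called Mup3, Mup21 and Serpina1e higher and Cyp17a1 and Acot3 lower. Serpina1e, an antitrypsin gene, measured 10590 ± 1685 and 16947 ± 2179 CPM (0.68, SE 0.131, edgeR adjusted p = 0.166) and the urinary protein gene Mup3 5673 ± 844 and 8329 ± 291 CPM (0.55, SE 0.107, edgeR adjusted p = 0.166). Acot3, an acyl-CoA thioesterase gene, measured 27.8 ± 14.9 and 5.75 ± 3.39 CPM (−2.28, SE 0.477, edgeR adjusted p = 0.203) and the steroid hydroxylase gene Cyp17a1 20.3 ± 9.40 and 8.06 ± 2.18 CPM (−1.33, SE 0.317, edgeR adjusted p = 0.262).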
